A study of Mus musculus with 24 samples.

Results

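The 10 lysosomal cathepsin genes Ctsa, Ctsb, Ctsc, Ctsd, Ctse, Ctsh, Ctsk, Ctsl, Ctss and Ctsz were followed in cultured dendritic cells of 3 mouse strains, with and without lipopolysaccharide (LPS). They were taken by symbol from an expression table of 55291 gene symbols, of which 13246 passed a filter on low values. All 10 cathepsins were found and all 10 passed. Bone marrow cells of the strains labelled B6, C57 and PWD were grown for 7 days in granulocyte-macrophage colony-stimulating factor (GM-CSF, 20 ng/ml), which every group received. One well per mouse was left untreated and another was given LPS from E. coli 0111:B4, a bacterial cell wall component, at 10 ng/ml for 6 hours. This gave 6 groups of 4 libraries, each strain represented by 4 mice, and each mouse by its own culture. PWD mice are inbred and descend from wild-caught Mus musculus musculus. What sets C57 apart from B6, and the age and sex of the mice, were not given in the sources used here. No engineered allele was named in the labels. GM-CSF cultures hold macrophages and granulocytes beside dendritic cells. In bulk RNA a change in the number of cells of a type and a change in the RNA per cell cannot be told apart.

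Cathepsins are proteases made as inactive precursors, carried to endosomes and lysosomes by mannose 6-phosphate receptors or sortilin, and activated there at acid pH. In dendritic cells and macrophages they degrade ingested proteins, cut the invariant chain away from major histocompatibility complex (MHC) class II, and make the peptides that class II molecules present. The set covers aspartic proteases (Ctsd, Ctse), a serine carboxypeptidase (Ctsa), cysteine endopeptidases (Ctsl, Ctss, Ctsb, Ctsk) and cysteine exopeptidases (Ctsc, Ctsh, Ctsz). Cystatins and stefins are natural inhibitors of the cysteine members. Many lysosomal genes carry an E-box core within a longer motif, the CLEAR element, that the transcription factor TFEB binds.

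Promoter stretches are shown for the 5 members in which a searched motif was found, Ctsa, Ctsd, Ctsl, Ctss and Ctsc, and a link between motif and level was not tested. RefSeq (GRCm38.p6) promoters were matched by symbol for 7 of the 10 members, and the 250 bases before each start were searched on both strands. The E-box CACGTG lay in the promoters of 3 of the 7, Ctsa, Ctsd and Ctsl, against 6.021% of all 32851 promoters of that length. The longer CLEAR letters GTCACGTG, which contain the E-box, lay in Ctsa and Ctsd, against 1.848% of all promoters. Each window below has the motif in capitals, 5′ to 3′ on the gene's own strand.
Ctsa, chr2:164833743-164833772, + strand: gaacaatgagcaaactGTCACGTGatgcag
Ctsd upstream copy, chr7:142388048-142388077, - strand: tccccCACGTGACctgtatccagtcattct
Ctsd downstream copy, chr7:142387907-142387936, - strand: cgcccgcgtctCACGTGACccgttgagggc
Ctsl, chr13:64370739-64370768, - strand: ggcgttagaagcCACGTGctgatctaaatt
By the GENCODE M21 annotation, the Ctsa window, just before the second of its RefSeq starts, and the downstream Ctsd window are exonic. The upstream Ctsd window lies outside the gene model, and the Ctsl window has 15 of its 30 bases in an exon and the rest in an intron. Ctsd carries the CLEAR letters at 2 places, from -245 to -238 and from -98 to -91 bases of its RefSeq start. Promoters of Ctsk and Ctsz held none of the 5 motifs searched, and Ctsb, Ctse and Ctsh had no entry.

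The promoter of Ctss held the interferon-stimulated response element letters, GAAA and GAAA with any 2 bases between, found in 2.977% of all promoters, and the promoter of Ctsc held the PU.1 letters GAGGAAGT on the opposite strand, found in 2.441%. PU.1 is a transcription factor of myeloid cells. The NF-kB letters, GGG and TTTCC with any 2 bases between, found in 1.412% of all promoters, lay in none of the 7 members. Both 250-base stretches end at the base before the start and hold no annotated exon of their gene. A match is a description of letters, and binding was not measured.
Ctss, chr3:95526536-95526785, + strand, response element in capitals: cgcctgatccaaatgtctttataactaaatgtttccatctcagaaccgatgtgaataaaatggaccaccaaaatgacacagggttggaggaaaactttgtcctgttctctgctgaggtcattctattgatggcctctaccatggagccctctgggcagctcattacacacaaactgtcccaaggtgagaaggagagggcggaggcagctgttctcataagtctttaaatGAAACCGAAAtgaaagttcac
Ctsc, chr7:88277835-88278084, + strand, PU.1 letters in capitals: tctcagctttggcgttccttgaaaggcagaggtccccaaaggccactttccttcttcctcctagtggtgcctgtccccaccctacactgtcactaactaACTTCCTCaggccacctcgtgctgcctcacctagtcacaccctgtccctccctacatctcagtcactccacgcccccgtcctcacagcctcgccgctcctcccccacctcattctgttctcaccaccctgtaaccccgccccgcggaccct

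Values are TPM, transcripts per 1000000, and sum to that number in every library, so the sequencing depth is unknown. Differences are log2 of TPM + 1 from a single limma fit over all 24 libraries, with p-values adjusted over all 13246 symbols, and are called at an adjusted p under 0.05. Between 28.8% and 44.2% of the TPM of each library came from structural RNAs, and LPS moved the median of all genes by -0.43 in B6, -0.32 in C57 and -0.32 in PWD. Each library was therefore also rescaled by median-of-ratios scaling, which brings the typical gene to the same level in every library. It moved those medians to 0.00, -0.03 and -0.00. Shares of all genes called or without overlap are given below for TPM as deposited. They were not counted for rescaled values or other settings. Replicates 1 and 2 stood apart from 3 and 4 in untreated PWD, where 9 of the 10 cathepsins were lower in both of the first pair and structural RNA took 40.3% to 41.9% against 28.8% to 29.3%. The same held in LPS-treated C57 (9 of 10 members, structural RNA at 39.9% to 41.2% against 31.6% to 33.4%). Over all tested genes the pairs did not overlap for 77.4% in untreated PWD and 64.4% in LPS-treated C57, against 33% in untreated B6 and 32.1% to 36.3% in the other groups, where 2 to 5 members did not overlap. Xist, a marker of female cells, was at most 0.0901 TPM in replicates 1 and 2 of all groups and 41.9 to 104 TPM in 3 and 4. By this marker replicates 1 and 2 were male and 3 and 4 female, so each pair alone is a subset of 1 sex. The main fit held no term for sex. Sex and any other difference between the pairs cannot be told apart. Of 10 conventional dendritic cell markers, 8 passed the filter on low values, among them Itgax, which encodes CD11c, at 206.2 to 401.6 TPM, and Zbtb46, at 4.90 to 16.4 TPM. The other two, Flt3 and Xcr1, were at most 0.708 and 0.227 TPM. The part of the differences between replicate pairs in the cathepsin results was not tested beyond the values with each pair alone.

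**Figure D1:**
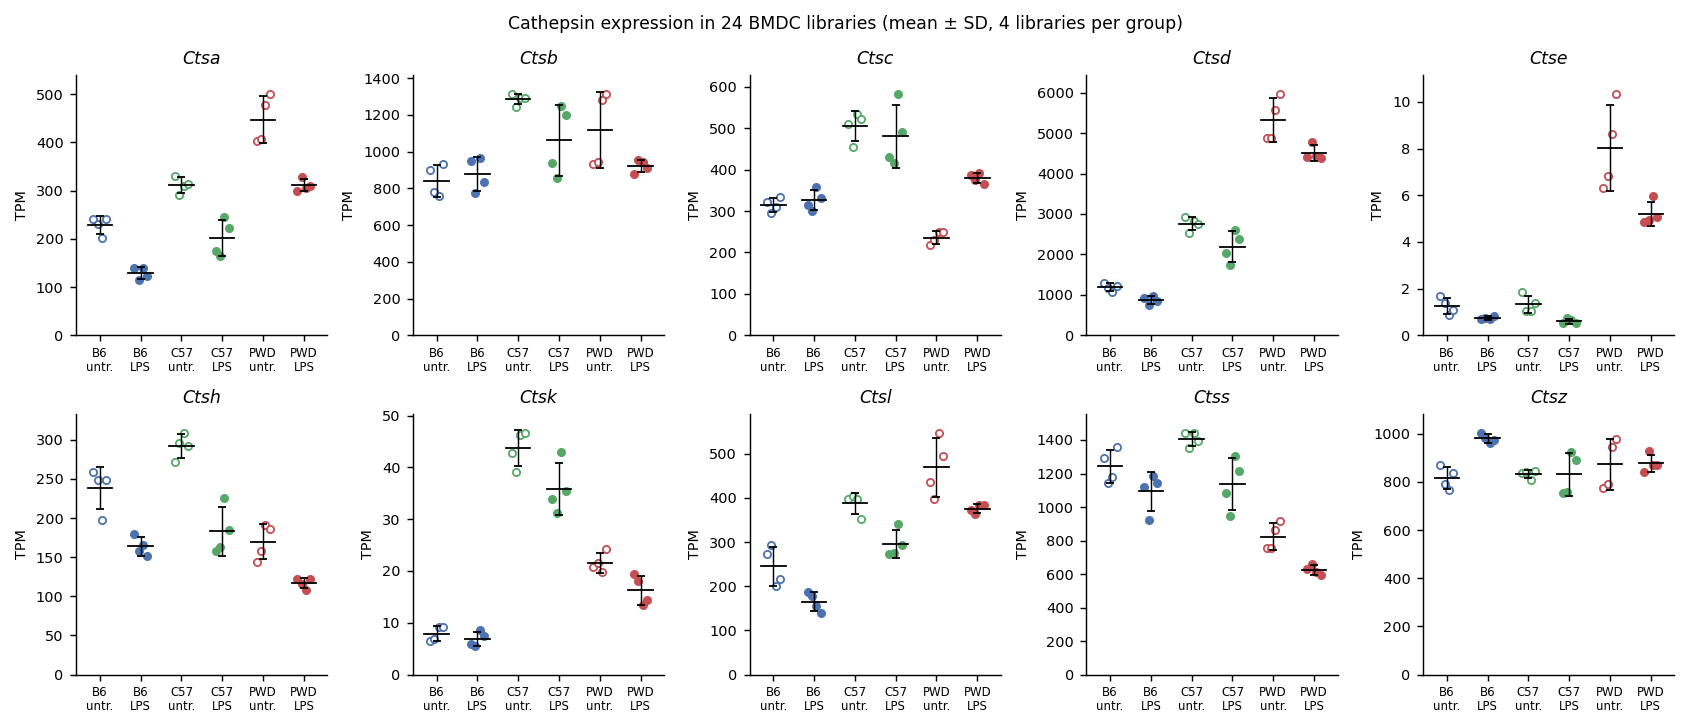
TPM of each cathepsin (vertical axes, from 0) in every library, by strain and treatment; open points are untreated, filled points are LPS, blue is B6, green is C57, red is PWD, and bars are the group mean ± SD of 4 libraries. The Ctsd points of PWD, between 4390.3 and 5973 TPM, sit above all others, and Ctsz spans only a 1.33-fold range over the 24 libraries.

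Cathepsin D (Ctsd, chr7:142375911-142388038, - strand), the main aspartic protease of lysosomes, was the member with the highest level in PWD and C57, and its level was ordered B6, C57, PWD. Untreated B6 libraries had 1289.7, 1172, 1079 and 1227 TPM. Untreated C57 libraries had 2929, 2536, 2837 and 2755 TPM. Untreated PWD libraries had 4891, 4881, 5586 and 5973 TPM. The 3 strains did not overlap, and by mean level Ctsd ranked 60 among the tested genes in B6, 25 in C57 and 17 in PWD. The difference was 2.16 ± 0.10 (log2, SE) for PWD over B6 (limma adjusted p = 2.75e-16), 1.21 ± 0.10 for C57 over B6 (6.4e-10) and 0.94 ± 0.10 for PWD over C57 (1.04e-08). After LPS the values were 924, 756, 962 and 848 TPM in B6, 2025, 1734, 2606 and 2371 in C57, and 4406, 4791, 4447 and 4390.3 in PWD. The order of the strains was kept without overlap, with 2.37 ± 0.10 for PWD over B6 (adjusted p = 3.01e-17), 1.31 ± 0.10 for C57 over B6 (5.51e-11) and 1.06 ± 0.10 for PWD over C57 (1.04e-09). An overlapping same-strand gene model, Gm49369, was between 0.279 and 26.9 TPM. Quantile normalization lowered the untreated difference of PWD over C57 to 0.58.

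On the TPM scale Ctsd fell with LPS in each strain, by 0.45 ± 0.10 in B6 (limma adjusted p = 2.99e-04), by 0.35 ± 0.10 in C57 (0.0038) and by 0.24 ± 0.10 in PWD (0.0439), but median-of-ratios scaling turned all 3 to 0.11, 0.01 and 0.15, of which PWD was called. The treated and untreated libraries overlapped in C57 alone. The PWD call was lost without any 1 of LPS replicates 1, 3 and 4 or untreated replicates 3 and 4, with values from -0.18 to -0.23 and adjusted p from 0.079 to 0.152. It was also lost with replicates 1 and 2 alone (-0.09, adjusted p = 0.577), with quantile normalization (-0.15, 0.238), with no filter on low values (0.0895) and without the trend and robust options of limma (0.0601). In C57 the difference was -0.17 with replicates 3 and 4 alone (adjusted p = 0.124) and -0.67 with quantile normalization.

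Cathepsin E (Ctse, chr1:131638306-131675505, + strand), an endosomal relative of cathepsin D, was the least abundant member in every group and was highest in PWD. Untreated PWD libraries had 6.32, 6.83, 8.61 and 10.3 TPM, against 1.69, 1.37, 0.859 and 1.10 in B6 and 1.83, 1.03, 1.06 and 1.37 in C57. PWD lay above every library of the other strains, which overlapped with each other. With LPS, PWD had 4.87, 4.93, 5.98 and 5.06 TPM, B6 had 0.675, 0.742, 0.715 and 0.835, and C57 had 0.504, 0.727, 0.674 and 0.533. PWD exceeded B6 by 1.99 ± 0.14 untreated (limma adjusted p = 9.18e-13) and by 1.83 ± 0.14 after LPS (4.44e-12), and C57 by 1.95 ± 0.14 in both states (1.97e-12 and 1.9e-12). The added 1 TPM understates these differences at such low levels. Outside PWD, 7 of 16 libraries reached 1 TPM, enough to pass the filter without PWD. The TPM fell with LPS by 0.36 in B6 (adjusted p = 0.0211), by 0.52 in C57 (0.00193) and by 0.52 in PWD (0.00182), each ± 0.14, and treated and untreated libraries did not overlap in any strain.

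The response of Ctse depended on the scaling. After median-of-ratios scaling it was -0.08 in B6 (limma adjusted p = 0.523), -0.33 in C57 (0.0126) and -0.19 in PWD (0.146). With quantile normalization it was 0.01 in B6 (0.951), -0.27 in C57 and -0.15 in PWD (0.257). An added 0.1 TPM in place of 1 gave -0.65 in B6 and -0.98 in C57. The B6 call was lost without untreated replicate 1 (-0.27, 0.0976) or 2 (-0.33, 0.0522) and with replicates 3 and 4 alone (-0.15, 0.422), and the PWD call with replicates 1 and 2 alone (-0.36, 0.106). Summed TPM of 5 eosinophil markers, of which all but Il5ra were above 1 TPM in some library of PWD, was 142 to 222 in untreated PWD, 105 to 216 in PWD with LPS and at most 19.9 in every other library. The part of those cells in the Ctse level was not tested.

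Cathepsin A (Ctsa, chr2:164832873-164841032, + strand), a serine carboxypeptidase that also protects β-galactosidase and neuraminidase 1 in the lysosome, was ordered as Ctsd was, B6 below C57 below PWD, and fell with LPS in each strain under both scalings. Untreated libraries had 241, 229.9, 201 and 242 TPM in B6, 331, 291, 309.6 and 314 in C57, and 403, 408, 477 and 501 in PWD. With LPS they had 139, 115, 138 and 123 TPM in B6, 174, 165, 244 and 223 in C57, and 299, 328, 306 and 309 in PWD. Neither the strains within a treatment nor the treatments within a strain overlapped. The LPS difference was -0.82 ± 0.10 in B6 (limma adjusted p = 1.37e-07), -0.64 ± 0.10 in C57 (1.07e-05) and -0.52 ± 0.10 in PWD (0.000137), with a decrease in 4 of 4 mice of each strain. After median-of-ratios scaling it was -0.26 (0.000217), -0.27 (0.000163) and -0.14 (0.0375). Ctsa was the only member called lower in all 3 strains under both scalings. In C57 the TPM difference was -0.42 with replicates 3 and 4 alone.

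Between strains, untreated Ctsa was higher by 0.96 ± 0.10 in PWD than in B6 (limma adjusted p = 9.72e-09), by 0.45 ± 0.10 in C57 than in B6 (0.00138) and by 0.52 ± 0.10 in PWD than in C57 (0.000186). After LPS the differences were 1.27 (3.89e-11), 0.63 (1.36e-05) and 0.64 (9.62e-06). Median-of-ratios scaling lowered the C57 difference over B6 to 0.24 untreated and 0.22 after LPS. PWD over C57 after LPS was 0.40 with replicates 3 and 4 alone. Pltp, on the opposite strand and overlapping Ctsa, was at 10.6 to 36.9 TPM; whether the authors counted by strand was not given in the sources used here.

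Cathepsin L (Ctsl, chr13:64359337-64370890, - strand), an endopeptidase that cuts the invariant chain in thymic epithelium and degrades protein in lysosomes of many cells, was lowest in B6. Untreated libraries had 273, 293, 200.4 and 217 TPM in B6, 397, 404, 398 and 352 in C57, and 436, 398, 547 and 496 in PWD. All C57 and PWD libraries lay above all B6 libraries, while C57 and PWD overlapped. PWD exceeded B6 by 0.94 ± 0.11 (limma adjusted p = 7.58e-08) and C57 exceeded B6 by 0.67 ± 0.11 (4.27e-05). PWD over C57 was 0.27 ± 0.11 (0.0589), reached 0.34 and 0.0219 without untreated PWD replicate 2, and was 0.32 with median-of-ratios scaling (0.00375). The untreated excess of PWD over B6 was 0.56 with replicates 1 and 2 alone. With LPS the libraries had 187, 178, 155 and 139.7 TPM in B6, 273, 275, 342 and 294 in C57, and 372, 363, 383 and 384 in PWD, and the strains did not overlap. PWD then exceeded B6 by 1.19 (6.79e-10), C57 exceeded B6 by 0.84 (6.58e-07) and PWD exceeded C57 by 0.35 (0.012). Median-of-ratios scaling lowered the excess of C57 over B6 after LPS to 0.44.

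Ctsl TPM fell with LPS by 0.56 in B6 (limma adjusted p = 9.28e-05), by 0.39 in C57 (0.00436) and by 0.31 in PWD (0.0205), each ± 0.11 and with no overlap. After median-of-ratios scaling the differences were -0.00 (0.989), -0.02 (0.85) and 0.07 (0.516), none of them called. The PWD call was lost without untreated PWD replicate 3 (-0.23, 0.0969) or 4 (-0.28, 0.0571) and with replicates 1 and 2 alone (-0.18, 0.0827). The C57 call was lost with replicates 3 and 4 alone (-0.24, 0.0637).

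Cathepsin S (Ctss, chr3:95526786-95556403, + strand), the protease that removes the last part of the invariant chain in dendritic cells and B cells, was lowest in PWD, the reverse of Ctsd. Untreated libraries had 1291, 1141, 1179 and 1356 TPM in B6, 1441, 1354, 1439 and 1397 in C57, and 756, 755, 864 and 915 in PWD. PWD lay below every library of the other strains, and B6 and C57 overlapped by a single B6 library. PWD was below B6 by -0.60 ± 0.09 (limma adjusted p = 4.68e-06) and below C57 by -0.78 ± 0.09 (7.72e-08), and C57 minus B6 was 0.18 ± 0.09 (0.124). With LPS the libraries had 1119, 920.3, 1188 and 1144 TPM in B6, 1082, 948, 1304 and 1214 in C57, and 633, 659, 613 and 594 in PWD. PWD again lay below all others, by -0.80 against B6 (2.78e-08) and -0.85 against C57 (1.34e-08), and C57 minus B6 was 0.05 (0.654), or -0.35 with median-of-ratios scaling (4.53e-05). In B6, Ctss and Ctsd were about level, with a mean Ctsd to Ctss ratio of 0.962 untreated, while the ratio was 1.96 in C57 and 6.48 in PWD.

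On the TPM scale Ctss fell with LPS by 0.32 ± 0.09 in C57 (limma adjusted p = 0.00475) and by 0.39 ± 0.09 in PWD (0.000779), without overlap, and was -0.19 ± 0.09 in B6 (0.0749). Median-of-ratios scaling gave 0.05 in C57 (0.53), -0.01 in PWD (0.929) and 0.38 in B6 (1.66e-05). The B6 value passed the threshold without untreated B6 replicate 2 (-0.23, 0.049) or LPS replicate 3 (-0.23, 0.0454). The C57 call was lost with replicates 3 and 4 alone (-0.17, 0.0935) and was -0.51 with quantile normalization, and the PWD call was lost with replicates 1 and 2 alone (-0.23, 0.113).

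Cathepsin B (Ctsb, chr14:63122462-63145923, + strand), an endopeptidase and dipeptidyl carboxypeptidase, was abundant in every library. Untreated libraries had 898, 781, 756 and 932 TPM in B6, 1314, 1245, 1291 and 1292 in C57, and 931, 945, 1280.4 and 1311 in PWD. C57 lay above all B6 libraries, and PWD spread from the B6 level, in replicates 1 and 2, to the C57 level, in 3 and 4. C57 exceeded B6 by 0.62 ± 0.12 (limma adjusted p = 0.000156), and by 0.40 with median-of-ratios scaling. PWD exceeded B6 by 0.39 ± 0.12 (0.00543), with 0.16 in replicates 1 and 2 alone (0.234), 0.63 in 3 and 4 alone, 0.24 with median-of-ratios scaling (0.000972) and 0.69 with quantile normalization. PWD minus C57 was -0.22 (0.126), which became -0.30 (0.0409) without untreated PWD replicate 4 and -0.17 (0.0162) with median-of-ratios scaling.

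After LPS, Ctsb was at 947, 773, 966 and 834 TPM in B6, 939.7, 858, 1248 and 1199 in C57, and 881, 953, 942 and 908 in PWD, and all 3 strains overlapped. C57 minus B6 was 0.26 (limma adjusted p = 0.0608), PWD minus B6 was 0.07 (0.605) and PWD minus C57 was -0.19 (0.184). The value of C57 minus B6 passed the threshold without LPS-treated B6 replicate 3 (0.30, 0.0429) or C57 replicate 1 (0.31, 0.038) or 2 (0.35, 0.012) and with the replicate number as a block (0.0379), yet was -0.15 with median-of-ratios scaling (0.0273). PWD minus C57 became -0.28 (0.0464) without LPS-treated C57 replicate 2, and PWD minus B6 was -0.27 with median-of-ratios scaling (0.000233). The LPS difference was 0.06 in B6 (0.641), -0.29 in C57 (0.031) and -0.26 in PWD (0.0549), each ± 0.12. Median-of-ratios scaling gave 0.63 in B6 (1.55e-09), 0.07 in C57 and 0.12 in PWD (0.0716). The C57 call was lost without any 1 of LPS replicates 1 and 2 and untreated replicates 1, 3 and 4 (-0.20 to -0.29, adjusted p 0.0542 to 0.155), with replicates 3 and 4 alone (-0.08, 0.541) and with no filter (0.0752). The PWD value passed without untreated PWD replicate 1 (-0.34, 0.016) or 2 (-0.33, 0.0201) and with the block (0.0384).

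Cathepsin K (Ctsk, chr3:95499256-95509362, + strand), the collagen-degrading protease of osteoclasts, was highest in C57, lower in PWD and lowest in B6 in both states. Untreated libraries had 42.7, 39.2, 46.3 and 46.6 TPM in C57, 20.7, 21.5, 19.8 and 24.3 in PWD, and 6.47, 6.82, 9.13 and 9.13 in B6. With LPS they had 33.9, 31.2, 42.9 and 35.5 TPM in C57, 19.4, 18.0, 13.4 and 14.4 in PWD, and 5.89, 5.51, 8.57 and 7.41 in B6. The 3 strains did not overlap in either state. C57 exceeded B6 by 2.34 ± 0.13 untreated (limma adjusted p = 3.67e-13) and 2.24 after LPS (6.24e-13). PWD exceeded B6 by 1.35 (1.65e-09) and 1.14 (3e-08), and was below C57 by -0.99 (6.23e-07) and -1.10 (8.66e-08). The excess of PWD over B6 after LPS was 0.73 in replicates 3 and 4 alone and 0.74 with quantile normalization. Summed osteoclast markers were highest in PWD, at 616 to 814 TPM untreated, against 455 to 476 in C57 and 340 to 386 in B6, with Acp5 at a mean of 289 TPM in PWD against 40.7 in C57 and 22.9 in B6. By the median over its 9 tested genes the list was 0.40 higher in C57 and 0.21 higher in PWD than in B6, and -0.07 for PWD minus C57. In untreated PWD against B6, 3 of the 9 were higher, 2 lower and 4 not called, from -1.58 to 3.61. Among all genes 37.2% were higher and 19.7% lower. The part of such cells in the Ctsk level was not tested.

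With LPS, Ctsk TPM fell in PWD by 0.40 ± 0.13 (limma adjusted p = 0.0122) without overlap, while the values were -0.18 in B6 (0.226) and -0.28 in C57 (0.0676). After median-of-ratios scaling they were -0.03 in PWD (0.876), 0.32 in B6 (0.0664) and 0.08 in C57. The PWD call was lost without LPS replicate 3 (-0.31, 0.0585), with replicates 1 and 2 alone (-0.17, 0.178, against -0.63 in 3 and 4 alone) and with quantile normalization (-0.10, 0.608). The C57 value passed without LPS replicate 3 (-0.37, 0.0243) and with the block (0.0226).

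Cathepsin C (Ctsc, chr7:88278085-88310888, + strand), also called dipeptidyl peptidase 1, activates the serine proteases of granules. For TPM as deposited it was the only member whose LPS response was called different between strains. With median-of-ratios scaling, quantile normalization and removal of structural RNA, 4, 5 and 6 members were called for PWD minus B6. For C57 minus B6 those settings called 5, 3 and 3 members, against 0 for TPM as deposited. The share of all genes called was not counted under those settings, so these counts have no background beside them. In PWD, untreated libraries had 218, 229, 249 and 249 TPM and treated libraries had 388, 374, 393 and 364. All treated PWD libraries exceeded all untreated ones, and Ctsc was higher with LPS in 4 of 4 PWD mice, by 0.55 to 0.83. In B6, untreated libraries had 323, 295, 311 and 334 TPM and treated libraries had 316, 301, 358 and 332. In C57 they had 509.5, 454, 535 and 523 untreated and 432, 416, 583 and 491 treated. Treatments overlapped in both strains, with an increase in 2 of 4 B6 and 1 of 4 C57 mice. The LPS difference was 0.69 ± 0.09 in PWD (limma adjusted p = 3.19e-07), 0.05 ± 0.09 in B6 (0.652) and -0.08 ± 0.09 in C57 (0.425). The response of PWD exceeded that of B6 by 0.64 ± 0.13 (0.000458) and that of C57 by 0.77 ± 0.13 (9.59e-05), and C57 minus B6 was -0.13 (0.547).

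The larger response of Ctsc in PWD kept its sign and its call in every scaling tried, with 0.46 over B6 and 0.78 over C57 after median-of-ratios scaling, 0.88 and 0.84 with quantile normalization, and 0.72 and 0.78 without structural RNA. Median-of-ratios scaling placed the LPS difference itself at 1.07 in PWD (limma adjusted p = 1.46e-11), 0.61 in B6 (1.06e-07) and 0.28 in C57 (0.00197). At rest Ctsc was lowest in PWD and highest in C57 with no overlap, by -0.42 ± 0.09 for PWD minus B6 (0.000239), -1.09 for PWD minus C57 (4.24e-11) and 0.68 for C57 minus B6 (1.18e-06). After LPS C57 stayed above B6 by 0.55 (9.26e-06), or 0.14 with median-of-ratios scaling (0.108). PWD minus B6 turned to 0.22 (0.0309), a call lost without LPS-treated B6 replicate 1 (0.20, 0.0684) or 2 (0.18, 0.0981) or PWD replicate 1 (0.21, 0.0628) or 3 (0.20, 0.0717), without a filter (0.0504), with replicates 3 and 4 alone (0.13, 0.21) and with median-of-ratios scaling (-0.12, 0.146), and at 0.47 with quantile normalization. PWD minus C57 narrowed to -0.33 (0.00303), with -0.15 in replicates 1 and 2 alone (0.159), -0.50 in 3 and 4 alone and -0.16 with quantile normalization (0.0518).

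**Figure D2:**
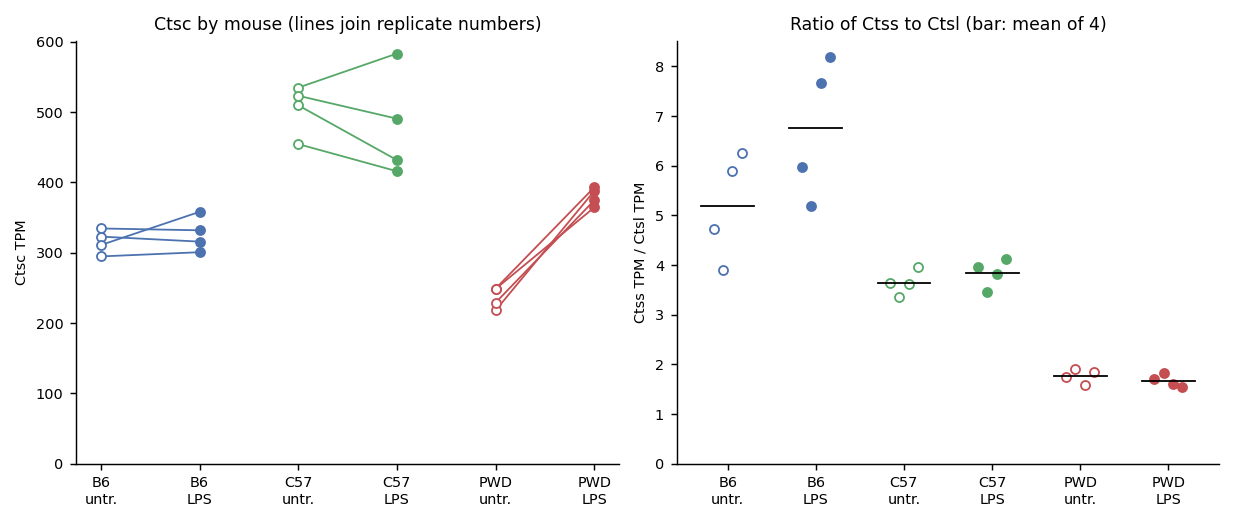
Ctsc in TPM for each mouse, untreated and with LPS, and the ratio of Ctss to Ctsl TPM in each library, by strain; open points are untreated and filled points LPS, with lines joining the wells of 1 mouse in the left panel and bars at the mean of 4 libraries in the right. In PWD Ctsc goes from 218 to 249 TPM untreated to 364 to 393 TPM with LPS. Treated and untreated libraries overlap within B6 and within C57. The Ctss to Ctsl ratio is lowest in PWD, between 1.55 and 1.90.

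Cathepsin H (Ctsh, chr9:90054152-90076089, + strand), an aminopeptidase, followed Ctss in being lowest in PWD. Untreated libraries had 259, 249, 198 and 248 TPM in B6, 271, 297, 309 and 292 in C57, and 144, 157, 191 and 186 in PWD. With LPS they had 179.9, 158, 166 and 152 in B6, 158, 163, 226 and 185 in C57, and 122, 116, 108 and 122 in PWD. PWD did not overlap with either strain in either state, while B6 and C57 overlapped with LPS. PWD was below B6 by -0.49 ± 0.11 untreated (limma adjusted p = 0.000308) and -0.48 with LPS (0.000274), and below C57 by -0.79 (5.97e-07) and -0.63 (1.56e-05). The untreated difference from B6 was -0.75 in replicates 1 and 2 alone and -0.23 in 3 and 4 alone (0.106), and that with LPS was -0.82 with median-of-ratios scaling. Untreated C57 exceeded B6 by 0.30 (0.0296), a call lost without untreated B6 replicate 3 (0.21, 0.144) or C57 replicate 2 (0.29, 0.0592), 3 (0.27, 0.078) or 4 (0.30, 0.0549), without a filter (0.0642), with replicates 1 and 2 alone (0.16, 0.215) and with median-of-ratios scaling (0.08, 0.292). With LPS, C57 minus B6 was 0.15 (0.251), or -0.26 after that scaling (0.000828).

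Ctsh TPM fell with LPS in each strain without overlap, by 0.53 ± 0.11 in B6 (limma adjusted p = 8.05e-05), by 0.68 ± 0.11 in C57 (5.7e-06) and by 0.53 ± 0.11 in PWD (0.000142), with -0.34 in replicates 1 and 2 of PWD alone. Median-of-ratios scaling gave 0.03 in B6 (0.713), -0.32 in C57 (0.000137) and -0.14 in PWD (0.0504), so that only the C57 decrease was called under both scalings.

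Cathepsin Z (Ctsz, chr2:174427493-174439039, - strand), a carboxypeptidase also known as cathepsin X, was the steadiest member for TPM as deposited, with a 1.33-fold range. Untreated libraries had 869, 792, 765 and 838 TPM in B6, 838, 843, 806 and 845 in C57, and 775, 789.5, 946 and 980.3 in PWD, and the strains overlapped. No untreated strain difference was called, with 0.09 for PWD minus B6 (limma adjusted p = 0.353), 0.03 for C57 minus B6 (0.794) and 0.06 for PWD minus C57 (0.581), but with median-of-ratios scaling C57 minus B6 was -0.18 (0.000278) and PWD minus C57 0.11 (0.00923). With LPS the libraries had 1003, 985, 961 and 975 TPM in B6, 755, 757, 926 and 889.5 in C57, and 839.8, 927, 872 and 872 in PWD. B6 lay above every other library and rose by 0.27 ± 0.08 (0.00462), against -0.01 in C57 (0.946) and 0.02 in PWD (0.883). With median-of-ratios scaling Ctsz rose in all 3 strains, by 0.83 (2.98e-15), 0.36 (1.29e-08) and 0.40 (1.94e-09). C57 with LPS was below B6 by -0.24 ± 0.08 (0.0115), with -0.20 (0.0501) when LPS-treated C57 replicate 1 was left out, -0.39 in replicates 1 and 2 alone, -0.09 in 3 and 4 alone (0.277), -0.14 with quantile normalization and -0.65 with median-of-ratios scaling. PWD minus B6 with LPS was -0.16 (0.0793), or -0.50 with median-of-ratios scaling (1.58e-11), and PWD minus C57 was 0.08 (0.404), or 0.15 (0.000714).

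Counted over the set, LPS called more cathepsins lower than higher on the TPM scale, as it did for genes at large. In B6, 1 member rose (Ctsz) and 5 fell (Ctsa, Ctsd, Ctse, Ctsh and Ctsl), against 71.6% of all tested genes called, 11.9% higher and 59.7% lower. In C57, 0 rose and 7 fell (all but Ctsc, Ctsk and Ctsz), against 62.5% called (10.4% higher, 52.2% lower). In PWD, 1 rose (Ctsc) and 7 fell (all but Ctsb, Ctsc and Ctsz), against 63.5% called (11.1% higher, 52.4% lower). These shares are near the background. Treated and untreated libraries did not overlap for 6 members in B6, 5 in C57 and 8 in PWD, against 64.3%, 58.5% and 53.8% of all genes. The median over the members was -0.27, -0.34 and -0.35, beside -0.43, -0.32 and -0.32 over all genes. Rescaled by median of ratios, 4 members were higher and 1 lower in B6, 2 and 3 in C57, and 3 and 1 in PWD. Shares of all genes were not counted on that scale. Ctsc and Ctsz were higher and called in each strain on that scale, joined by Ctsb and Ctss in B6 and Ctsd in PWD.

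**Figure D3:**
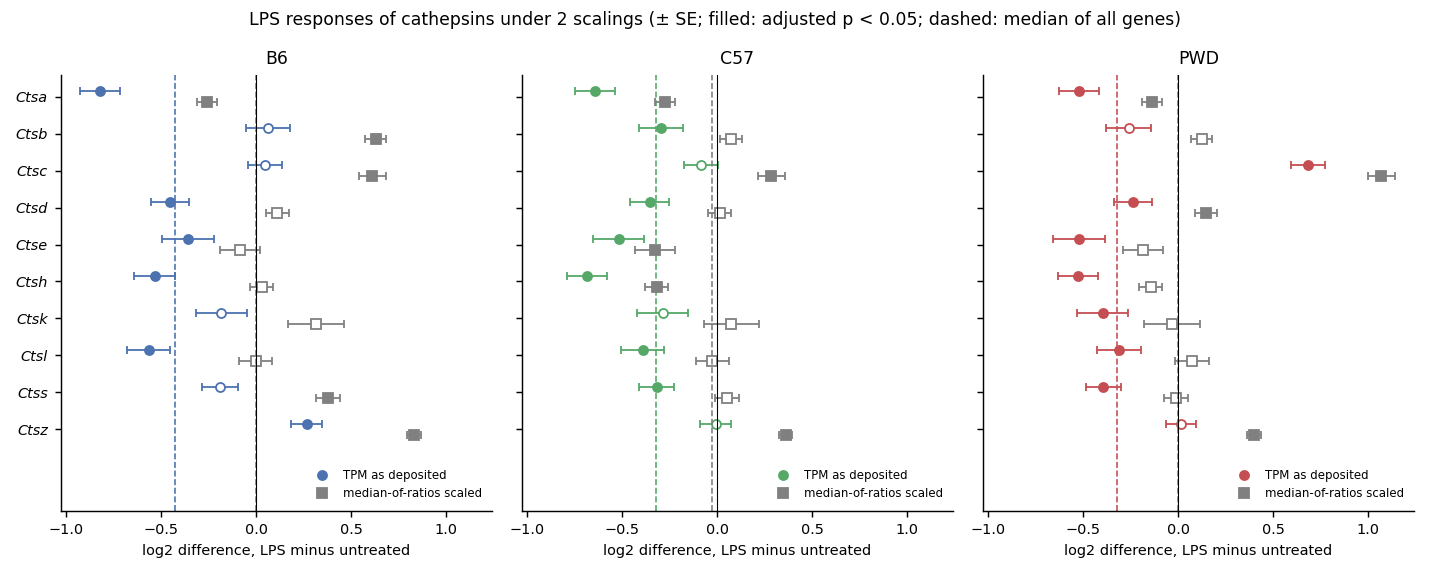
LPS minus untreated (log2, horizontal axis) for each cathepsin in B6, C57 and PWD, with SE bars; circles are TPM, grey squares median-of-ratios scaled values, filled symbols are called at an adjusted p under 0.05, and dashed lines mark the median of all tested genes on each scale. Ctsa lies left of 0 on both scales in each strain, and Ctsc in PWD lies farthest right, at 0.69 and 1.07.

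Between strains the members were called in both directions. Untreated PWD had 6 members higher than B6 (Ctsa, Ctsb, Ctsd, Ctse, Ctsk and Ctsl) and 3 lower (Ctsc, Ctsh and Ctss), where 57% of all genes were called (37.2% higher, 19.7% lower). The median over the members was 0.67, beside 0.14 over all genes. Untreated C57 had 7 higher than B6 and 0 lower, where 38.8% were called (31.9% higher, 6.92% lower), with a median of 0.53 beside 0.17; only Ctse, Ctss and Ctsz were not called. The split was 6 and 1 with median-of-ratios scaling, where no share of all genes was counted. Between PWD and C57, 3 were higher in PWD (Ctsa, Ctsd and Ctse) and 4 lower (Ctsc, Ctsh, Ctsk and Ctss), where 46.2% were called (20.1% higher, 26.2% lower), or 5 and 5 with median-of-ratios scaling. The medians were -0.08 for the members and -0.04 for all genes. Libraries did not overlap for 8 members between PWD and B6, 7 between C57 and B6 and 7 between PWD and C57, against 44.3%, 39.5% and 40.5% of all genes.

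After LPS, PWD had 6 members higher than B6 and 2 lower, where 68.6% of all genes were called (49.7% higher, 19% lower), with a median of 0.68 beside 0.28. C57 had 5 higher than B6 and 1 lower (Ctsz), where 58.8% were called (49.1% higher, 9.69% lower), with a median of 0.40 beside 0.29. PWD had 4 higher than C57 and 4 lower, where 54.2% were called (24.4% higher, 29.8% lower), with a median of -0.05 beside -0.05. The splits after median-of-ratios scaling were 5 and 4, 4 and 5, and 5 and 4, with no share of all genes counted. Without overlap were 9, 6 and 8 members, against 65.9%, 53.1% and 51% of all genes. Ctsd, Ctsa, Ctsk and Ctsl were called higher in PWD and in C57 than in B6 in both states and under both scalings. Comparisons that name the same strain share its libraries.

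**Figure D4:**
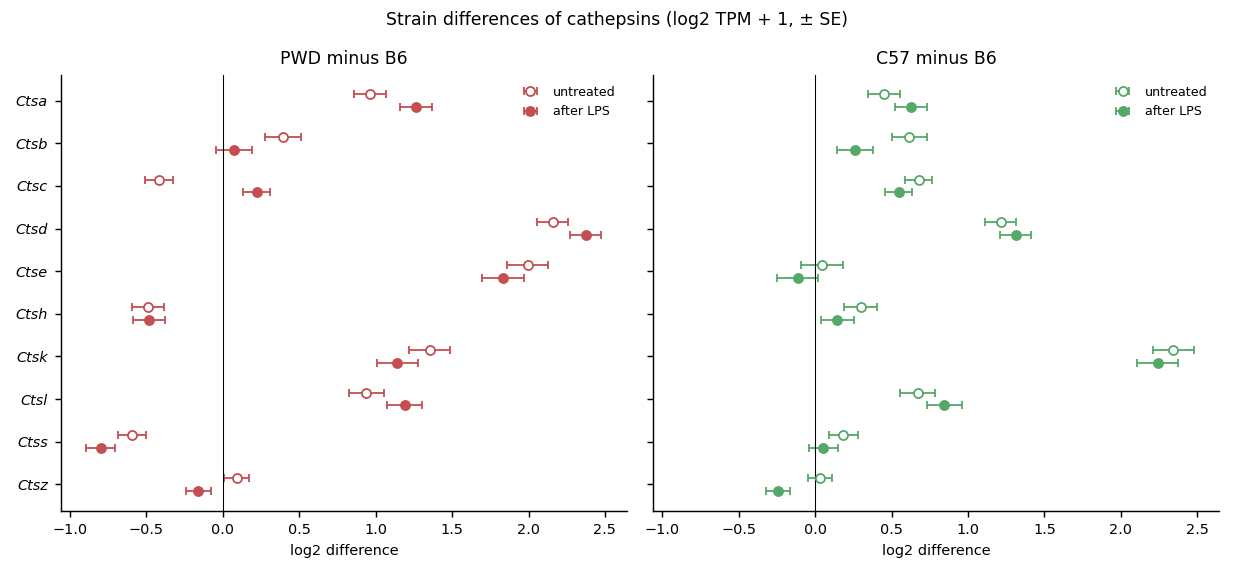
Strain differences of the 10 cathepsins (log2 TPM + 1, with SE bars), untreated and after LPS, for PWD minus B6 (left) and C57 minus B6 (right); open points are untreated and filled points after LPS. Ctsd lies highest for PWD minus B6, at 2.16 and 2.37, Ctsk highest for C57 minus B6, at 2.34 and 2.24, while Ctss and Ctsh lie below 0 for PWD minus B6 in both states.

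The difference between strains in the LPS response was called for 1 member, Ctsc, with a larger response in PWD than in B6 (23.5% of all genes called, 16% larger and 7.5% smaller) and than in C57 (11.4% called, 5.41% larger and 5.99% smaller). It was called for 0 members in C57 minus B6 by limma (14.3% of all genes, 10.9% larger and 3.39% smaller), where 2 members, Ctsb and Ctsz, had an unadjusted p under 0.05. After median-of-ratios scaling 5 members had a smaller value in C57 than in B6 and 0 a larger one. That scaling also called 3 members smaller in PWD than in B6. The share of all genes called after it was not counted, so these counts have no background beside them. On the TPM scale the 9 members other than Ctsc ranged from -0.32 to 0.30 for PWD minus B6 and from -0.11 to 0.16 for PWD minus C57.

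Summed over the 10 members, cathepsin transcripts were 5129 TPM in untreated B6 (range 4699 to 5451), 7832 in C57 (7463 to 8075) and 9496 in PWD (8581 to 10645), and the strains did not overlap. With LPS the sums were 4618 (4192 to 4904), 6411 (5347 to 7523) and 8136 (7964 to 8533). The sums came to between 0.419% and 1.06% of a library's TPM. Ctsd made most of the difference, with 23.2% of the sum in untreated B6, 35.3% in C57 and 56.2% in PWD. Without Ctsd the untreated means were 3937, 5068 and 4164 TPM. The share of Ctss was 24.2% in untreated B6, 18.0% in C57 and 8.67% in PWD, though its own mean was higher in C57 (1408 TPM) than in B6 (1242 TPM). With LPS the Ctsd shares were 18.9%, 34.0% and 55.4%. The ratio of Ctss to Ctsl was 5.19 in untreated B6 (3.90 to 6.26), 3.64 in C57 (3.35 to 3.97) and 1.77 in PWD (1.58 to 1.90). With LPS it was 6.76 (5.18 to 8.19), 3.84 (3.45 to 4.13) and 1.67 (1.55 to 1.82). These ratios within a library are unchanged by a single scaling factor per library, such as that of median-of-ratios scaling, and they separated PWD from both other strains. On the median-of-ratios scale the mean sums rose from untreated to LPS without overlap in B6 (4766 to 6351) and in PWD (7886 to 8854). In C57 they were 6289 and 6598, and treated and untreated libraries overlapped.

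**Figure D5:**
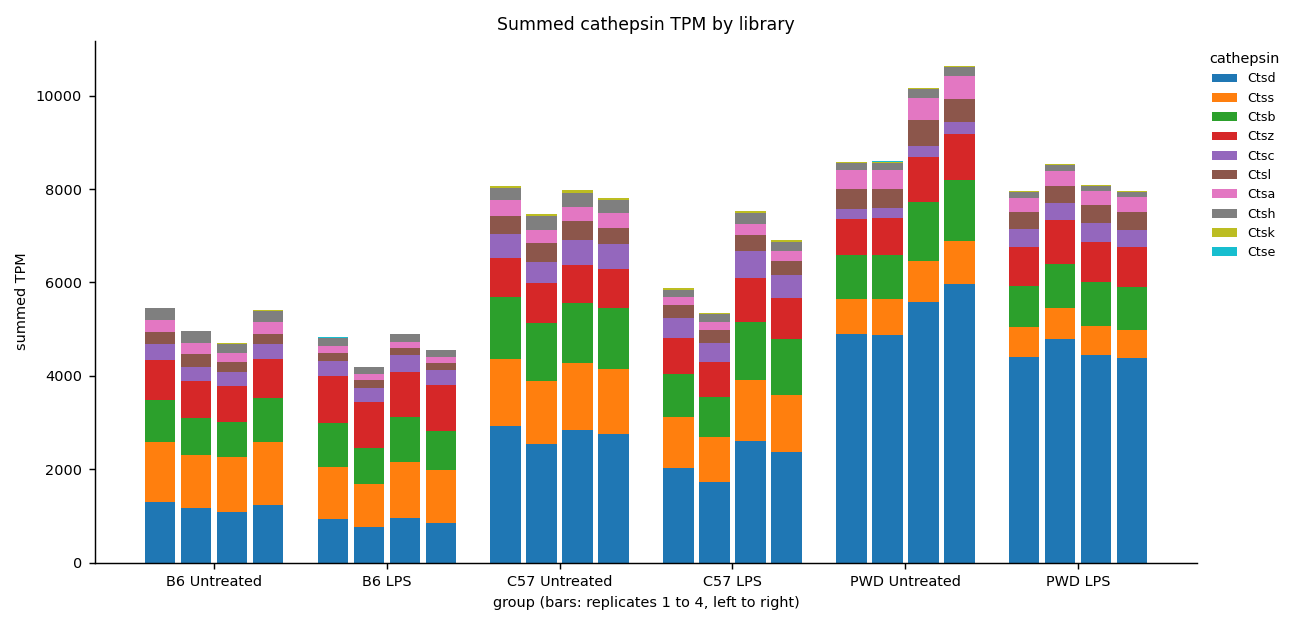
Summed TPM of the 10 cathepsins in each of the 24 libraries, stacked by gene (vertical axis from 0). Ctsd fills 18.9% of the bar on average in LPS-treated B6 and 56.2% in untreated PWD, and the sums run from 4192 to 10645 TPM.

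The rest of the lysosome was read from lists of its other parts, beside which 59.7% of all genes fell with LPS in B6 (median -0.43), 52.2% in C57 (-0.32) and 52.4% in PWD (-0.32). With LPS, the other lysosomal proteases and partners fell in 11 of 11 tested genes in B6 (median -0.62), 11 of 11 in C57 (-0.57) and 9 of 11 in PWD (-0.55), with none higher, but with median-of-ratios scaling 2 were higher and 3 lower in B6, 0 and 6 in C57, and 2 and 5 in PWD. Lgmn, or legumain, an asparaginyl endopeptidase that processes cathepsins, fell under both scalings, by 1.04 in B6, by 0.84 in C57 and by 1.16 in PWD on the TPM scale and by 0.49, 0.47 and 0.78 after median-of-ratios scaling. Prcp, a lysosomal carboxypeptidase, fell by 1.22, by 0.79 and by 0.75 in TPM and by 0.66, 0.42 and 0.37 after that scaling. Glycosidases and other hydrolases fell in 20 of 23 in B6, 23 in C57 and 21 in PWD on the TPM scale, led by Manba, the lysosomal β-mannosidase, at -1.77, -1.12 and -1.41 (rescaled -1.28, -0.77 and -1.05), and median-of-ratios scaling gave 5 higher and 13 lower, 0 and 14, and 1 and 9. Subunits of the proton pump that acidifies the lysosome turned with the scaling. Of 17, 2 rose and 13 fell in B6, 0 and 14 in C57, and 2 and 11 in PWD, while median-of-ratios scaling gave 10 and 2, 5 and 6, and 9 and 5. Atp6v0d2, a subunit enriched in osteoclasts and macrophages, was at -1.50, -1.12 and -1.27 in TPM and at -0.95, -0.75 and -0.89 when rescaled.

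Tfeb, the transcription factor that binds CLEAR elements, was lower with LPS under both scalings, by -1.50 in B6, -1.36 in C57 and -1.20 in PWD in TPM and by -1.03, -1.02 and -0.84 after median-of-ratios scaling. Its untreated mean was 12.6 TPM in B6, 20.6 in C57 and 27.2 in PWD, the order of Ctsd and Ctsa. PWD exceeded B6 by 1.06 and C57 exceeded B6 by 0.68. Of the sorting genes, Sort1, the sortilin that carries precursors to lysosomes, was at 12.8, 40.5 and 65.7 TPM, higher than B6 by 1.59 in C57 and 2.28 in PWD. Among the glycosidases 16 were higher and 4 lower in untreated PWD than in B6 (median 0.46, beside 0.14 for all genes). In untreated C57 14 were higher and 1 lower than in B6 (0.48, beside 0.17). Of all genes, 37.2% were higher and 19.7% lower in PWD, and 31.9% and 6.92% in C57. Lgmn was lower in PWD, at 62.1 TPM, than in B6, at 117, and C57, at 143. A link between any of these genes and the cathepsin levels was not tested.

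Inhibitors and the class II pathway also differed between strains. Cst3, or cystatin C, the secreted inhibitor of cysteine cathepsins, had 2513 TPM in untreated B6, 1159.8 in C57 and 671 in PWD, which was -1.11 for C57 and -1.91 for PWD against B6. With LPS those differences were -1.29 and -2.12. Stfa1, a stefin, was at 95.8 TPM in untreated PWD against 3.51 in B6, a difference of 4.42, but near-identical stefin copies lie beside it and the value is uncertain. Cst7, the endolysosomal cystatin F, rose with LPS by 2.25 in B6, by 1.29 in C57 and by 1.19 in PWD. Of 10 inhibitors tested, 3 were higher and 4 lower in untreated PWD than in B6 (median -0.17, beside 0.14 for all genes), and 2 higher and 2 lower in C57 than in B6 (0.12, beside 0.17). Of 11 class II pathway genes, 11 were lower in untreated PWD than in B6 (median -0.97) and 10 lower in C57. Among all genes, 37.2% were higher and 19.7% lower in untreated PWD than in B6, and 31.9% and 6.92% in C57. H2-Eb1, a class II β chain, was at 43.8 TPM in PWD against 1463 in B6. The only genome build named in the processing notes is mm10. Its effect on strain differences, this one included, was not tested. Summed macrophage markers were also lower in untreated PWD, at 741 to 823 TPM, than in C57 (1109 to 1308) and B6 (1634 to 2083). Dendritic cell markers were at 315 to 529, 458 to 467 and 577 to 739 TPM in the same order. Neutrophil markers were higher than in B6 (1533 to 1771 TPM) for 8 of 10 genes in untreated C57 (2295 to 3899 TPM, median 0.87). In untreated PWD 6 were higher and 2 lower than in B6 (1707 to 2878 TPM, median 1.13), and the sums of PWD and B6 overlapped. With LPS the neutrophil marker sums were 1063 to 1317 TPM in B6, 1434 to 2776 in C57 and 767 to 1203 in PWD. Stromal markers were higher in untreated PWD than in B6 for 5 of 5 tested genes, at sums of 10.9 to 20.0 TPM against 1.72 to 4.72. The part of any of these cells in the cathepsin differences was not tested.

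As a description over the 24 libraries, which share strains and treatments, Ctsa, Ctsd and Ctsl ran together, with Pearson correlations of 0.928 for Ctsa and Ctsl, 0.921 for Ctsd and Ctsl and 0.898 for Ctsa and Ctsd. Ctsh and Ctss formed another pair, at 0.883. Ctsd and Ctss were opposed, at -0.544, as were Ctse and Ctss, at -0.728. Within groups, after removing each group's mean, 43 of the 45 pairs were positive with a median of 0.609, and Ctsd and Ctss reached 0.920. The share of positive pairs among all genes was not counted. Within groups the correlations of members with structural RNA ran from -0.931 for Ctsb to a weak -0.0679 for Ctsk. TPM sum to a fixed total, so a larger share of structural RNA lowers the other genes of that library together. These negative values, and the positive values between members, can come from this total alone, and that part was not tested. Correlations of other genes with structural RNA were not counted. Among 8264 candidate genes, the one most like Ctsd was Bcap31 (0.992), then F7 and Bhlhe41 (0.988 each). The gene most like Ctsa was Cotl1 (0.992), most like Ctsl was Tnfrsf26 (0.981) and most like Ctss was Gapdh (0.975). Ctsh was most like Tsc22d3 (0.961) and then Lgmn (0.958), Ctsc was most like Mctp1 (0.935) and then Nlrc4 (0.928), Ctse was most like Il18r1 (0.986), Ctsk was most like Plin2 (0.936), Ctsb was most like Vapa (0.943) and Ctsz was most like Rufy3 (0.939).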

How the data were processed

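RNA of 24 cultures was sequenced from stranded libraries made with 1 µg of total RNA, per the labels' protocols. The authors deposited a single table of TPM values, of 55401 rows and 55291 symbols, and rows that shared a symbol were summed. STAR, edgeR and the mm10 build are named in the submitters' processing notes, without versions; the annotation, the counting and TPM methods and the use of strand were not given in the sources used here. Log2(TPM + 1) of the 13246 symbols with at least 1 TPM in at least 4 libraries was fitted by limma 3.58.1 in R 4.3.3 as 6 group means (18 residual degrees of freedom, empirical Bayes with trend and robust options). The 12 comparisons were each adjusted by Benjamini-Hochberg over all 13246 symbols. Count tests were not used, because TPM keeps no depth. The design text describes each replicate as a culture of 1 mouse, so that equal strain and number mark the wells of 1 mouse. The residual correlation of those wells was 0.0513 to 0.176 over 12 pairs, highest with their own number in 10. The fit was tested on simulated data.

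The 10 members and all lists were chosen with earlier results of these data known. All members are described in every comparison; of other lists, counts, medians and at most 3 called genes per comparison with the largest difference and a mean of at least 10 TPM are given. The genes most like a member were those with the highest Pearson correlation over 24 libraries. Alternatives were median-of-ratios scaling, quantile normalization, removal of structural RNA, other filters and pseudocounts, the replicate block, each pair of replicates alone, and leaving out each library.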

Additional observations from a re-analysis of the deposited data

Results flagged for a closer look

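In 3 of the 60 sets of 4 libraries formed by a member and a group, 1 library stood apart from the others by more than Dixon's 95% critical value, where chance gives about 1 in 20. Ctsd in PWD with LPS had a gap of 0.857 of the range, with replicate 2 at 4791 TPM and the others at 4390.3 to 4447. Ctsh in untreated B6 had 0.833, with replicate 3 at 198 TPM and the others at 248 to 259. Ctsl in untreated C57 had 0.865, with replicate 4 at 352 TPM and the others at 397 to 404.

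The LPS response of Ctsc differed between strains by limma's test of the difference, by 0.64 for PWD minus B6 and by 0.77 for PWD minus C57. Ctsc rose in 4 of 4 PWD mice, in 2 of 4 B6 mice and in 1 of 4 C57 mice.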

How the results depend on the processing

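Depth is unknown in TPM, so the precision of low values such as those of Ctse could not be given. Of 92 member results, 92 kept direction and call with a pseudocount of 0.1 TPM, 91 without the trend and robust options, 90 with a filter of 5 TPM, 90 with only the groups compared, 88 with no filter, 82 without structural RNA, 75 with quantile normalization, 73 and 72 with replicates 1 and 2 or 3 and 4 alone, and 52 with median-of-ratios scaling. The block on replicate number left 89 as they were, reversed 0 and added 3 calls. Those were Ctsb for C57 minus B6 after LPS (0.26) and, for LPS, Ctsk in C57 (-0.28) and Ctsb in PWD (-0.26). For LPS responses and their differences the block paired the wells of 1 mouse. For strain comparisons it joined equal replicate numbers of different strains, which are different mice. The causes of the changes below were not tested.

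Median-of-ratios scaling reversed the LPS response of B6 for Ctsd (0.11), Ctsh (0.029), Ctsk (0.32) and Ctss (0.38), of C57 for Ctsb (0.074), Ctsc (0.28), Ctsd (0.014), Ctsk (0.075), Ctss (0.051) and Ctsz (0.36), and of PWD for Ctsb (0.12), Ctsd (0.15) and Ctsl (0.073). It also reversed untreated PWD minus B6 for Ctsz (-0.068), untreated C57 minus B6 for Ctse (-0.066), Ctss (-0.029) and Ctsz (-0.18), PWD minus B6 after LPS for Ctsb (-0.27) and Ctsc (-0.12), and C57 minus B6 after LPS for Ctsb (-0.15), Ctsh (-0.26) and Ctss (-0.35). Quantile normalization reversed the LPS response of B6 for Ctsc (-0.10), Ctse (0.0097) and Ctsk (0.39) and untreated C57 minus B6 for Ctse (-0.0747). Leaving out structural RNA reversed Ctsz for LPS in C57 (0.036) and for untreated C57 minus B6 (-0.042).

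Replicates 1 and 2 alone reversed Ctsc for LPS in B6 (-0.0016), Ctsz for untreated PWD minus B6 (-0.085) and PWD minus C57 (-0.10), Ctse for untreated C57 minus B6 (-0.075), Ctsh (-0.0704) and Ctss (-0.0023) for C57 minus B6 after LPS, and Ctsb for PWD minus C57 after LPS (0.029). Replicates 3 and 4 alone reversed Ctsc (0.016) and Ctsz (0.14) for LPS in C57, Ctsz for LPS in PWD (-0.14) and for PWD minus C57 after LPS (-0.058), and Ctsb for untreated PWD minus C57 (0.0043). Without 1 library, the values that changed sign were Ctss for C57 minus B6 after LPS (-0.026 to 0.14), Ctse for untreated C57 minus B6 (-0.056 to 0.13), and Ctsz for LPS in C57 (-0.061 to 0.037) and in PWD (-0.039 to 0.074); none of these was called.

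Members called for LPS in PWD were 8, but 4 with median-of-ratios scaling and 3 with replicates 1 and 2 alone; for LPS in C57 they were 7, but 3 with replicates 3 and 4 alone. Members called for the difference of LPS responses between PWD and B6 were 1, but 4 with median-of-ratios scaling, 5 with quantile normalization, 6 without structural RNA, and 3 and 4 with each pair of replicates. Between C57 and B6 they were 0, but 5, 3 and 3 with those 3 scalings, and between PWD and C57 they were 1, but 2 with quantile normalization, and 4 and 2 with each pair. No share of all genes was counted under these other settings. Without 1 library, the counts were 5 to 7 for LPS in B6, 6 to 8 in C57 and 6 to 9 in PWD; 9 to 9, 6 to 7 and 7 to 8 for untreated PWD minus B6, C57 minus B6 and PWD minus C57; 7 to 8, 6 to 7 and 8 to 9 for the same after LPS; and 1, 0 and 1 for the differences of responses.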

Other observations

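Of 13 further cathepsin genes, 3 passed the filter on low values, Ctsf, Ctso and Ctsg. Ctsf, a cysteine endopeptidase and the one described here because of its values, had a mean of 5.37 ± 0.872 TPM (SD, n = 4) in untreated PWD, 1.52 ± 0.436 in B6 and 1.55 ± 0.244 in C57. On the TPM scale PWD exceeded B6 by 1.34 ± 0.16 (log2, SE, limma adjusted p = 4.08e-08) and C57 by 1.32 ± 0.16 (7.73e-08), and C57 minus B6 was 0.03 (0.912). Like Ctse, Ctsf was thus a cathepsin of low level that was highest in PWD. Ctso was at a mean of 7.72 TPM in untreated B6, 8.30 in C57 and 8.79 in PWD. Ctsg, a neutrophil granule protease activated by cathepsin C, had a mean of at most 1.60 TPM in any group.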
